A study of Mus musculus with 10 samples.

Results

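The genes described here encode the proteasome, the protease complex that degrades ubiquitin-tagged proteins. They were taken as every gene of the deposited gene table whose Ensembl identifier maps to a symbol beginning with Psma to Psmg followed by a digit, which gave 50 of 22255 genes. One of the 50, Psmc3ip, encodes a meiotic recombination cofactor and shares only the spelling, which left 49 proteasome genes. They comprised 7 alpha and 7 constitutive beta subunits of the 20S core, 3 inducible beta subunits, 6 ATPases and 11 other subunits of the 19S cap, 5 activator genes, 1 inhibitor and 7 assembly factors. A further 2, Psma8 and Psmb11, encode core subunits restricted to testis and to thymus cortex. Subunits with other symbols, such as Adrm1 and Sem1, were read out with a list of partner genes.

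RNA was measured in synaptoneurosomes, which are pinched-off and resealed synaptic compartments, from the hippocampus of wild-type C57Bl/6J mice. One group of 5 libraries came from mice given AM6545, an antagonist of the CB1 cannabinoid receptor that enters the brain poorly, over a sub-chronic course, and the other 5 came from mice given vehicle. All 10 libraries share strain, tissue, fraction and library kit, and the labels used here give no dose, age, sex or batch. Whether animals were pooled for a library is not stated either, so each n is a number of libraries and p-values measure only the spread between them, which may be technical.

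The 26S proteasome has a barrel-shaped 20S core of stacked alpha and beta rings, in which 3 beta subunits per ring cut peptide bonds, and a 19S cap that binds ubiquitin, removes it and unfolds the substrate. Activators can take the place of the cap, and interferon-inducible beta subunits can take the place of the catalytic ones to form the immunoproteasome, whose peptides feed antigen presentation. In neurons the proteasome is found in dendrites and at synapses, where degradation of synaptic proteins is one of the processes that long-lasting changes of synaptic strength require. Most subunits are needed in fixed proportions, and their genes share the transcription factor Nrf1 (Nfe2l1), which binds antioxidant response elements.

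Library totals ran from 18106112 to 25899794 estimated counts, and 14358 genes had enough counts to be tested, among them 47 of the 49 proteasome genes. The neuron and synapse markers summed to 8313 to 10333 CPM (estimated counts scaled to the library's TMM-adjusted total) in vehicle and 8338 to 9851 in the AM6545 group, with all 12 tested. Oligodendrocyte markers summed to 12238 to 28214 CPM and microglia markers to 943 to 1355 CPM over the 10 libraries, so RNA of glia was present in the fraction. Choroid plexus markers varied most, from 66.2 CPM in vehicle replicate 4 to 5013 CPM in vehicle replicate 1. In bulk RNA of this kind, fewer cells of a type and less RNA per cell cannot be told apart.

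The promoters are shown first, and whether their motifs bear on the levels described below was not tested. RefSeq windows on GRCm38.p6, from 250 bases before to 50 bases after the start of the gene, were matched for 25 of the 31 genes of the constitutive core and cap. The antioxidant response element TGACNNNGC, searched on both strands, was in 4 of these 25 windows, which is 16%, and in 14% of the windows of all 27025 genes. The CCAAT box, searched as CCAAT on both strands, was in 10 of 25, which is 40%, against 41.1% of all genes. Of the 11 core genes with a window, 6 held CCAAT, which is 54.5%, and of the 14 cap genes 4, which is 28.6%. A match is a run of letters and not a shown binding site. The windows below hold such a match in capitals, read 5′ to 3′ along the gene's strand. The first 3 carry the antioxidant response element and the last 2 the CCAAT box of a core subunit.
Psmb5: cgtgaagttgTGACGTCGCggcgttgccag
Psmc6: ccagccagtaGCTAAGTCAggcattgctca
Psmd12: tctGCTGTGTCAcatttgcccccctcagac
Psma2: ggtgactctcctCCAATcagagcaaagaag
Psma7: gcctgcctgtcgCCAATgcgcgctcgagtc
These lie at chr14:54618023-54618052 on the minus strand for Psmb5, chr14:45329587-45329616 on the plus strand for Psmc6 and chr11:107479278-107479307 on the plus strand for Psmd12. Those of Psma2 and Psma7 lie at chr13:14613176-14613205 on the plus strand and chr2:180042643-180042672 on the minus strand. In Psmc6 and Psmd12 the capitals are the reverse complement of the motif. All 5 windows end before the annotated start of the gene. The fourth antioxidant response element match was in Psmb6. The core of the interferon-stimulated response element, also searched on both strands, was in 2 of 25, which is 8%, against 3.99% of all genes, and in 0 of the 3 inducible beta genes.

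Levels were compared between genes as estimated counts divided by transcript length and summed per gene. The sums were scaled to the same total in every library, without the TMM adjustment used for CPM, a quantity called level per length here. The 31 genes of the constitutive core and cap lay close together, between 117 for Psmc6 and 484 for Psma3, with a median of 247. Their summed level was 8056 ± 1029 in vehicle libraries and 8129 ± 803 with AM6545 (SD, 5 libraries per group), on average 0.809% of the total over all genes. Over all genes tested the median level per length was 15.1.

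Among the core genes, the alpha subunits, which form the gate of the barrel, ran from 175 for Psma2 to Psma3 at 484 ± 40.9 (SD over 10 libraries). The beta subunits ran from Psmb7 at 160.3 ± 17.3 to Psmb5 at 372 ± 53.4. These are 2 of the 3 catalytic genes, Psmb5 for the chymotrypsin-like and Psmb7 for the trypsin-like activity, and Psmb6, for the caspase-like activity, stood at 355 ± 54.4. The level of Psmb7 was thus the lowest of the 3, although their proteins occur in equal number in the core. Of the annotated transcript sequence of Psmb5, 71.7% of 31-base words also occur in another annotated gene, most of all in the processed pseudogene Gm3375. For Psma5 this was 61.0%, so these 2 levels depend on how such reads were assigned. In all, 13 of the 47 tested genes shared over 10% of their words with another annotated gene, and the same holds for them. Among these were Psmc1 with 32.2%, Psmd2 with 31.6% and Psma3 with 20.3%. Only 2 of the 47, Psmb7 and Psme2, shared over 10% with a gene of the deposited gene table. For Psmb5, Psma5, Psmc1 and Psmd2 that share was 0%. For Psmb7 that share was 10.5%, most of all with Nek6, whose exons overlap it on the opposite strand.

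In the cap, the ATPases that unfold substrates ran from Psmc6 to Psmc5 at 423 ± 48.7, and the other subunits from Psmd13 at 138 to the deubiquitinase Psmd14 at 287. Of the activator genes, Psme3, the nuclear PA28 gamma, was at 117, beside Psmc6 at the lower end of the core and cap genes, and Psme1 and Psme2, the cytoplasmic PA28 alpha and beta, were at 102 and 82.7. Psme4, which encodes PA200, was at 4.32 ± 0.553. Psmf1, the inhibitor PI31, was at 39.4, and the chaperones of assembly lay between 18.5 for Psmg4 and 63.4 for Psmg2. Psme2 shares 33.5% of its 31-base words with other annotated genes, most of all with its near copy Psme2b, so the value of Psme2 is uncertain.

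The inducible beta genes were the lowest of the core after the tissue-restricted ones. Psmb10, which replaces Psmb7, was at 64.6 ± 12.7, Psmb8, which replaces Psmb5, at 11.0 ± 2.40, and Psmb9, which replaces Psmb6, at 3.30 ± 1.14. Testis-restricted Psma8 stood at 0.620 ± 0.241, from 5 to 16 counts per library. Thymus-restricted Psmb11 had 3 to 12 counts per library and was not tested, nor was Psme2b.

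**Figure D1:**
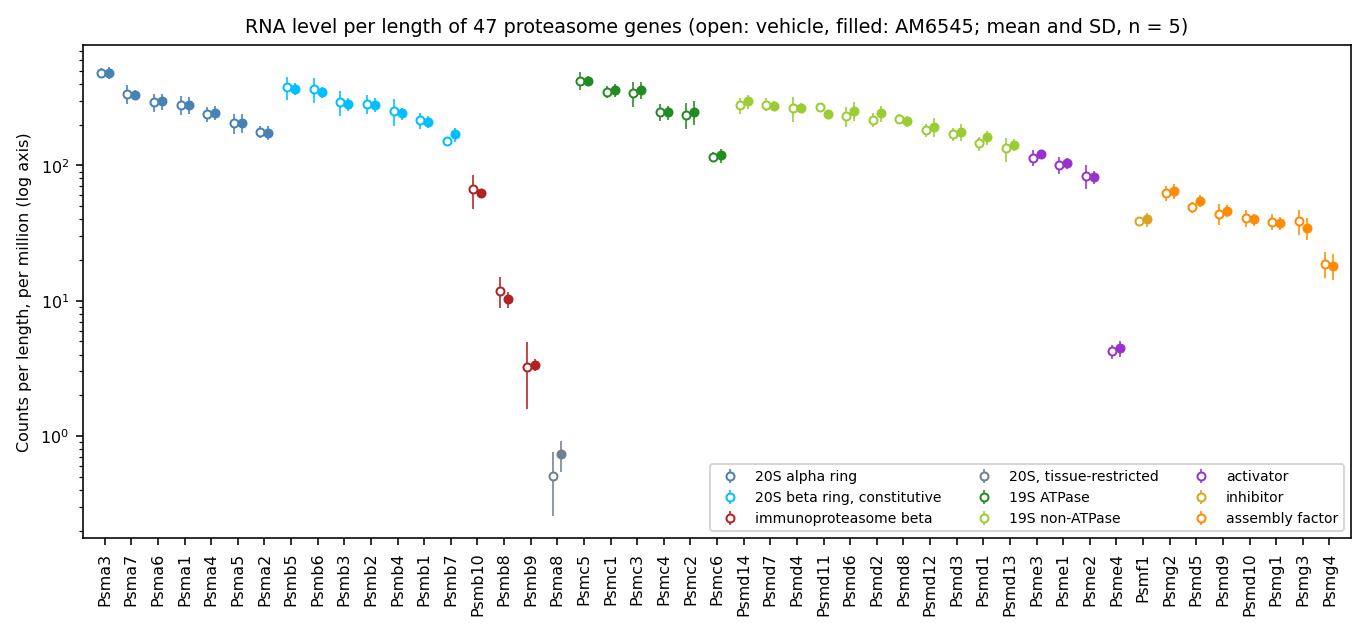
Level per length of each proteasome gene (log axis), grouped by role. Open circles are vehicle and filled circles AM6545 means of 5 libraries, and bars are the SD. The core and cap genes form a band between 117 and 484, while Psmb8 and Psmb9, Psme4 and the tissue-restricted genes lie far below it.

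The clearest pattern of these genes was between libraries and not between treatments. For each library the deviation of every gene from its own mean over the 10 libraries was taken on the log2 CPM scale. The median deviation of the 31 core and cap genes was 0.41, -0.35, -0.13, 0.19 and -0.081 in vehicle replicates 1 to 5 and -0.019, 0.19, -0.20, -0.033 and 0.050 in AM6545 replicates 1 to 5. Libraries of both groups are thus found on either side of 0, and the highest and the lowest are both vehicle libraries. These medians spanned 0.760 on the log2 scale, and 0.611 when libraries were scaled by their totals alone.

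The subunits deviated almost as a block. Of 31, those above their own mean numbered 29, 0, 2, 31 and 2 in vehicle replicates 1 to 5 and 15, 30, 0, 13 and 26 in AM6545 replicates 1 to 5. In vehicle replicate 4 all 31 were above, and in vehicle replicate 2 and AM6545 replicate 3 none was. Of all 14358 genes tested, 7355, 7313 and 7169 were above their means in those libraries, in the same order. The core and the cap, whose transcript lengths differ as described below, parted in AM6545 replicates 1 and 4. In AM6545 replicate 1, 0 of 14 core genes and 15 of 17 cap genes were above their means, and in AM6545 replicate 4 these were 1 and 12. No test was made of these counts, since genes are not replicates.

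The genes outside the core and cap followed these libraries to different degrees. Of the 7 assembly factors, 6 were above their means in vehicle replicate 1, 7 in vehicle replicate 4, 7 in AM6545 replicate 2 and 0 in vehicle replicate 2. Of the 4 activators, 2 were above in vehicle replicate 1, 0 in vehicle replicate 4 and 4 in AM6545 replicate 5. The coefficient of variation over the 10 libraries, from CPM, was lowest for Psme3, at 7.63%, and Psmf1, at 8.19%. Among the core and cap genes it ran from 10.4% for Psmc6 to 22.7% for Psmb4, a beta subunit, with a median of 16.7%, and over all genes tested the median was 14.5%. Psmb7 stood apart from the rest of the beta ring, with 10.9% against 16.4 to 22.7% for the other 6. The inducible genes varied more than any core or cap gene, from 25.2% for Psmb10 to 42.7% for Psmb9, and Psmb9 also has few counts.

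**Figure D2:**
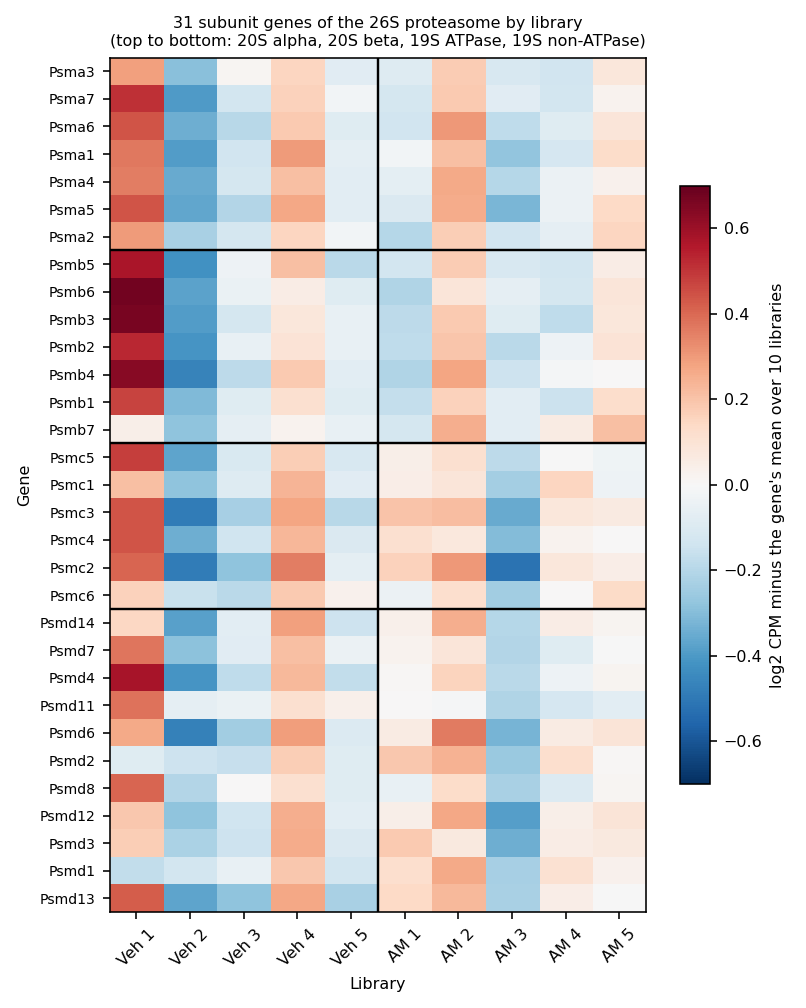
Deviation of each of the 31 core and cap genes (rows, by role) from its own mean over the 10 libraries (columns), in log2 CPM. Whole columns of core and cap genes share a colour: vehicle replicates 1 and 4 and AM6545 replicate 2 are high, vehicle replicate 2 and AM6545 replicate 3 are low.

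Ribosomal protein genes and nuclear genes of oxidative phosphorylation, each a set of 79 genes for a large complex, were read the same way. Vehicle replicate 1 was high in all of them, with 79 of 79 ribosomal and 77 of 79 oxidative phosphorylation genes above their means. In vehicle replicate 4, where 31 of 31 proteasome genes were above, 24 of 79 ribosomal genes and 24 of 79 oxidative phosphorylation genes were. In AM6545 replicate 3 it was the reverse, with 0 of 31 proteasome genes against 71 and 54 of 79. The proteasome medians in those libraries were 0.19 and -0.20, and the ribosomal ones -0.051 and 0.11. AM6545 replicate 1 also parted the sets, with 15 of 31 proteasome genes above their means against 1 and 11 of 79. The medians there were -0.019 for the proteasome and -0.33 for each of the other 2 sets. Genes of similar level moved in part with the proteasome genes. Of the 1338 genes whose level per length lies in the range of the core and cap genes, 952 were above their means in vehicle replicate 4. In AM6545 replicate 3 this was 589, in vehicle replicate 1 937 and in vehicle replicate 2 305. Their medians in vehicle replicate 4 and AM6545 replicate 3 were 0.074 and -0.035.

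Transcript length moved with part of this. All genes tested were put in 4 classes of length. In vehicle replicate 1 the median deviation of the shortest class (median length 792 bases) was 0.49 and that of the longest (median 5084 bases) was -0.17. The median length is 999 bases for the core, 1565 for the cap, 699 for ribosomal genes and 2657 for all genes tested. In vehicle replicate 4 the medians of the 4 length classes lay between -0.060 and 0.041, and in AM6545 replicate 3 between -0.024 and 0.085. In AM6545 replicates 1 and 4, where core and cap parted, the shortest class had medians of -0.27 and -0.16. The next class, of median length 1557 bases, had -0.032 and -0.031, and the longest had 0.0048 and 0.039. The core medians in these libraries were -0.13 and -0.10, and the cap medians 0.047 and 0.045. Summed neuron and synapse markers were highest in vehicle replicate 4, at 10333 CPM, and lowest in vehicle replicate 1 and AM6545 replicate 3, at 8313 and 8338 CPM. Snap25 was the largest part of these sums, with 4494 CPM in vehicle replicate 4 and 2946 CPM in AM6545 replicate 3. Syp, Camk2a, Dlg4 and Shank3 were lower in vehicle replicate 4 than in AM6545 replicate 3, and the other markers of this list were higher. Oligodendrocyte markers were highest in AM6545 replicate 3, at 28214 CPM. The part of length and of cell type in these deviations was not tested.

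**Figure D3:**
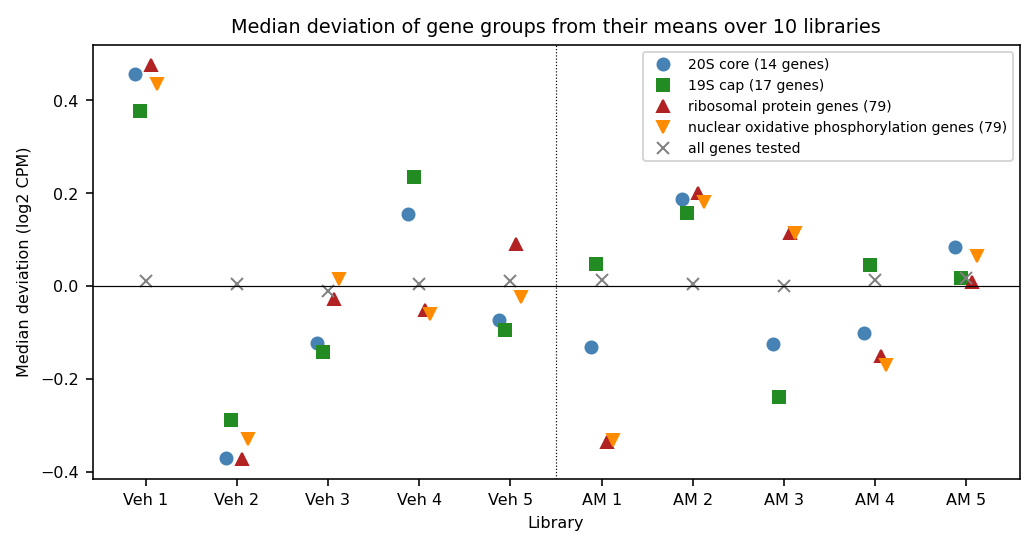
Median deviation of the 20S core, the 19S cap, ribosomal protein genes and oxidative phosphorylation genes from their 10-library means (log2 CPM) in each library. Vehicle replicate 1 is high in all 4 of these sets. In vehicle replicate 4 and AM6545 replicate 3 core and cap lie across 0 from the other 2 complexes. In AM6545 replicate 1 core and cap lie above the other 2 complexes. Crosses give all genes tested.

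The study compared AM6545 with vehicle to ask what the drug does to RNA at hippocampal synapses, and no proteasome gene passed the test of that difference. In edgeR's quasi-likelihood test, 0 of 47 passed an adjusted p of 0.05, with a smallest adjusted p of 0.9998, and 0 of all 14358 genes passed, a background of 0%. At an unadjusted p under 0.05 0 of 47 were higher, against 1.14% of all genes, and 0 of 47 lower, against 0.738%, which makes 1.88% in either direction. Every AM6545 library lay above every vehicle library in 0 of 47, against 0.174% of all genes, and below in 0 of 47, against 0.118%, together 0.293%. DESeq2 and limma-voom also called 0 of 47.

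The fitted differences were small and mostly below 0. Log2 fold changes (AM6545 minus vehicle) ran from -0.24 for Psmb8 to 0.36 for Psma8, with a median of -0.036 against -0.0057 over all genes. Of the 47, 31 were below 0, against 51.9% of all genes, and 16 above, against 48.1%. By role, the median was -0.040 for the alpha ring, -0.076 for the constitutive beta ring, -0.0090 for the ATPases and 0.023 for the other cap subunits. Activators had a median of 0.015 and assembly factors of -0.083.

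The side of 0 rested on single libraries. Of the 14 core genes 13 were below 0, and of the 17 cap genes 8. Without vehicle replicate 1, which was high in all 3 complexes, 0 of 14 core genes and 2 of 31 core and cap genes were below 0. Without vehicle replicate 2, 28 of 31 were. With limma-voom and sample quality weights, 6 of 14 and 9 of 31 were below 0. The median over the 31 was -0.040 with all libraries, 0.073 without vehicle replicate 1 and -0.11 without vehicle replicate 2. Among the 1338 genes whose level per length lies in the range of the core and cap genes, the median was -0.040 and 33.6% were above 0, against 10 of 31 core and cap genes.

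The intervals bound the size of any difference. The 95% interval of the fold change lay inside 1.5-fold either way for all 31 core and cap genes, against 80.3% of all genes tested and 98.7% of the 1338 genes in the same range of level, so this is not particular to them. Of all 47 genes, 44 lay inside 1.5-fold and 46 inside 2-fold. The median standard error of the log2 fold change was 0.134 over the 31 core and cap genes, 0.130 over all genes and 0.116 over those 1338, so the core and cap genes were measured no more precisely than these.

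**Figure D4:**
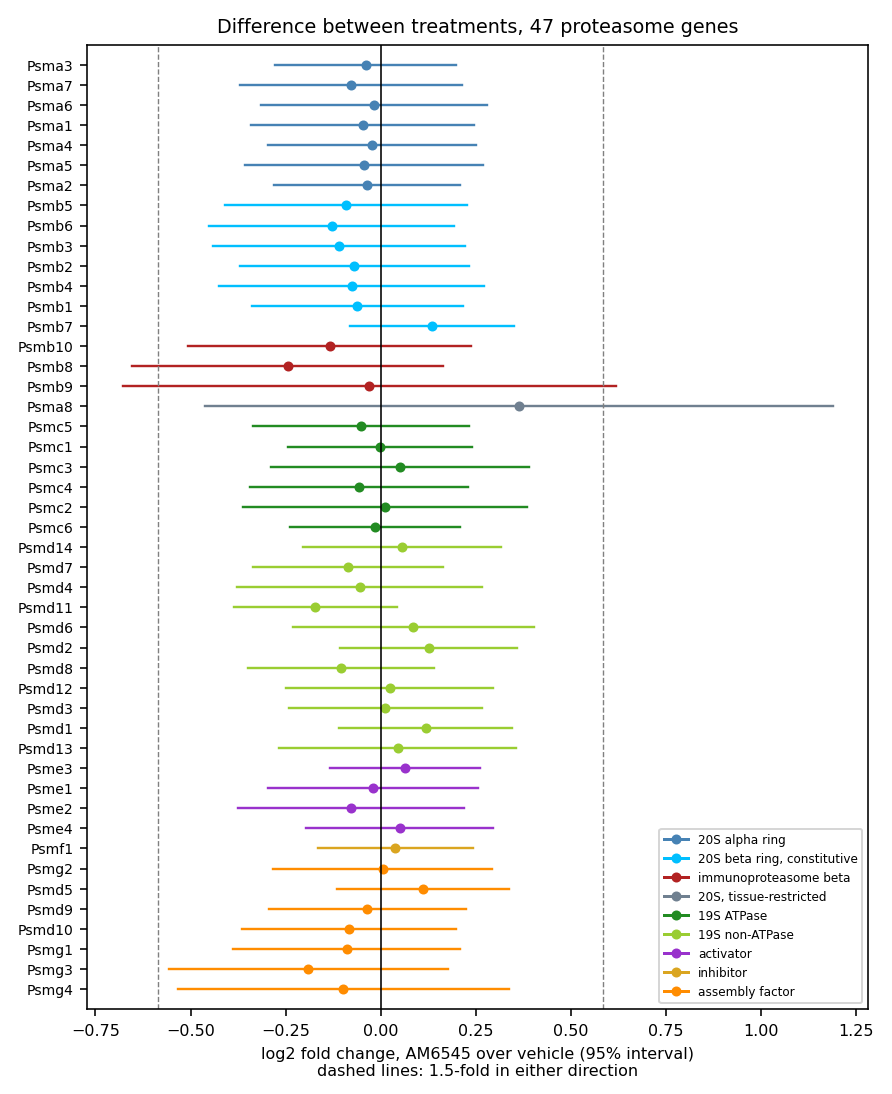
Log2 fold change of each tested proteasome gene (AM6545 minus vehicle) with its 95% interval, by role. Every interval crosses 0, dashed lines mark 1.5-fold in either direction, and the intervals of the core and cap genes stay inside 1.5-fold.

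In the core, Psmb7 had the highest fold change of the beta ring. It measured 98.4, 78.6, 91.5, 96.9 and 91.9 CPM in vehicle replicates 1 to 5 and 87.6, 114, 90.6, 99.4 and 111 CPM in AM6545 replicates 1 to 5. The groups overlap, with 3 AM6545 libraries above every vehicle library, and the fit gave a log2 difference of 0.13 (SE 0.102, unadjusted p = 0.204 by edgeR). Psmb6, lowest of the ring, measured 228, 109.9, 138, 148 and 135 CPM in vehicle and 123, 151, 137, 131 and 151 CPM in the AM6545 group. Vehicle replicate 1 is the highest of the 10, and the fit gave a log2 difference of -0.13 (SE 0.152, unadjusted p = 0.408 by edgeR).

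Psmb5, the chymotrypsin-like subunit, measured 254, 127, 167, 198 and 150.0 CPM in vehicle and 157, 194, 158, 157 and 177 CPM in the AM6545 group, with a log2 difference of -0.091 (SE 0.150, unadjusted p = 0.555 by edgeR). The AM6545 values lie inside the range of the vehicle values, and vehicle replicates 1 and 2 are the ends of that range. In the alpha ring, where all 7 genes were below 0, Psma6 was nearest to 0 and Psma7 farthest. Psma6 measured 153 ± 34.0 CPM in vehicle and 151 ± 21.7 in the AM6545 group (SD, 5 libraries per group). Psma7 measured 227, 121, 145, 177 and 157 CPM in vehicle and 146, 180.2, 150.3, 145 and 161 CPM in the AM6545 group, and its fold change had a 95% interval of 0.773 to 1.16. Psma3, of highest level, measured 254 ± 38.2 and 247 ± 23.9 CPM.

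In the cap, Psmd11 had the smallest unadjusted p of all 47 genes. This subunit, Rpn6, clamps the cap to the core. It measured 246, 181, 183, 204 and 194 CPM in vehicle and 189, 188, 164, 174 and 179.7 CPM in the AM6545 group, with a log2 difference of -0.17 (SE 0.101, unadjusted p = 0.107 by edgeR) and a 95% interval of 0.765 to 1.03-fold. Of the 5 AM6545 libraries 3 lay below every vehicle library. At the other end stood Psmd2, the scaffold subunit Rpn1, with 327, 314, 311, 392 and 327 CPM in vehicle and 396, 411, 289.9, 377 and 348 CPM in the AM6545 group. Vehicle replicate 4 is the highest of its group and AM6545 replicate 3 the lowest of all 10, and edgeR gave a log2 difference of 0.13 (SE 0.110, unadjusted p = 0.268 by edgeR).

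Among the ATPases, Psmc3 (Rpt5) measured 276 ± 74.8 CPM in vehicle and 286 ± 41.9 in the AM6545 group (SD, 5 libraries per group), with a log2 fold change of 0.052. Psmc4 (Rpt3) measured 181 ± 40.1 and 174 ± 18.8 CPM, with -0.057. These were the ends of the ATPase class, whose 6 genes all had intervals inside 1.5-fold. Psmc5, of highest level in the cap, measured 294 ± 68.6 and 284 ± 20.9 CPM.

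Activators and regulators also showed overlapping groups. Psme3 measured 135, 170.2, 150.0, 156 and 157 CPM in vehicle and 169, 145, 152, 172 and 164 CPM in the AM6545 group, a narrow spread in both groups, with a log2 difference of 0.063 (SE 0.093, unadjusted p = 0.510 by edgeR). Psme2 measured 51.7, 28.6, 35.1, 32.6 and 32.9 CPM in vehicle and 29.3, 36.8, 34.6, 32 and 38.7 CPM in the AM6545 group, with vehicle replicate 1 far above the others. Psme4 measured 13.5 ± 0.632 and 14 ± 2.15 CPM, and Psmf1 40.3 ± 2.80 and 41.4 ± 4.09 CPM. Psmd5, a chaperone of the cap's base, had the highest fold change of the assembly factors, 0.11 with a 95% interval of 0.924 to 1.26-fold. Psmg3, a chaperone of the core, had the lowest. It measured 26.6, 13.6, 15.9, 16.5 and 14.9 CPM in vehicle and 14.7, 19.3, 14.2, 11.7 and 16.9 CPM in the AM6545 group, with a log2 difference of -0.19 (SE 0.173, unadjusted p = 0.287 by edgeR). Its vehicle replicate 1 is the highest of the 10, and without that library the log2 fold change was 0.0077.

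For the inducible beta genes the median difference (log2) was -0.13 with 0 of 3 above 0. Psmb8 measured 10.3, 5.12, 5.65, 4.83 and 6.25 CPM in vehicle and 5.36, 6.36, 5.84, 4.62 and 4.94 CPM in the AM6545 group. Vehicle replicate 1 stands alone above the others, and the groups otherwise overlap. The fit gave a log2 difference of -0.24 (SE 0.194, unadjusted p = 0.223 by edgeR), and without vehicle replicate 1 the log2 fold change was -0.012. Psmb9 measured 4.85, 1.75, 1.40, 1.31 and 2.47 CPM in vehicle and 2.29, 2.74, 2.20, 2.21 and 2.08 CPM in the AM6545 group. Its fold change of -0.030 turned to 0.41 without vehicle replicate 1. Psmb10 measured 52.3, 21.2, 29.4, 35.0 and 28.4 CPM in vehicle and 29.1, 32.4, 28.8, 30.8 and 30.4 CPM in the AM6545 group. Again vehicle replicate 1 was highest, and without it -0.13 became 0.087.

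Vehicle replicate 1 also had the highest summed microglia markers, at 1355 CPM against 943 to 1310.3 CPM in the other libraries, and the highest sum of the interferon response and antigen presentation genes, at 483 against 341 to 445 CPM. All 12 microglia markers were tested and none was at 0 in a library. Of 18 interferon and antigen presentation genes 16 were tested and 0 passed the threshold, with a median log2 fold change of -0.076. The part of microglial RNA in these genes was not tested. Psmb8 and Psmb9 also overlap other genes on the opposite strand, Psmb9 the peptide transporter Tap1, and whether the counting used strand is not given in the sources used here.

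Each inducible gene was then set against the constitutive gene it replaces, as its share of the pair's level per length. Psmb8 made up 3.07 ± 0.639% in vehicle and 2.72 ± 0.362% in the AM6545 group (SD, 5 libraries per group). For Psmb9 the share was 0.860 ± 0.281% in vehicle and 0.962 ± 0.116% in the AM6545 group. Psmb10 reached 30.2 ± 5.95% in vehicle and 27.1 ± 1.34% in the AM6545 group. The order of the 3 shares was the same in all 10 libraries, and within each pair the groups overlapped.

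The Psmb10 share ran from 24.2 to 39.9% in vehicle, where replicate 1 was highest, and from 25.5 to 28.4% in the AM6545 group. The difference of the means was -3.07 percentage points with all libraries and -0.650 without vehicle replicate 1. The share depends on which transcripts are counted. About 50% of the Psmb10 level per length came from transcripts annotated as other than protein-coding, chiefly the retained-intron transcript Psmb10-205. With protein-coding transcripts alone, an alternative chosen after the data were seen, the share was 17.8 ± 3.44% in vehicle and 15.7 ± 1.14% in the AM6545 group. For Psmb8 and Psmb9 the corresponding shares were 2.51 ± 0.578% in vehicle and 2.31 ± 0.298% in the AM6545 group and 0.953 ± 0.299% in vehicle and 1.07 ± 0.178% in the AM6545 group.

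**Figure D5:**
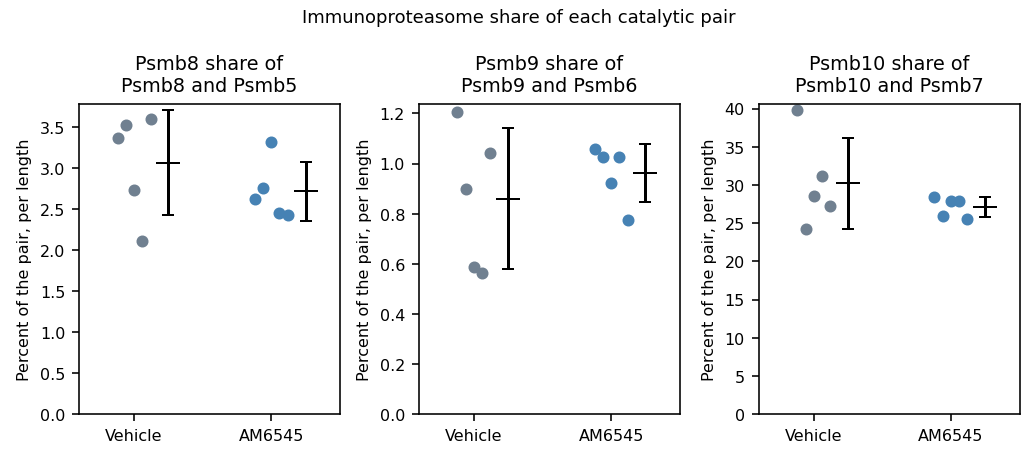
Share of the inducible subunit in each catalytic pair (percent of the pair's level per length) in the 10 libraries (points), with the mean and SD of each group beside them and a separate axis for each pair. The Psmb10 share lies above the other 2 in every library, and the groups overlap in all 3 pairs.

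The transcript table held 278 transcripts of the 50 genes, and 129 of them had enough counts to be tested. By edgeR's test 0 passed an adjusted p of 0.05, against 0.00314% of 31848 transcripts, which is 1 transcript. At an unadjusted p under 0.05, 0 were higher, against 1.1% of all transcripts, and 0 lower, against 0.873%, together 1.97%. The transcripts of smallest p were Psmc3ip-202, Psmd11-205 and Psmd7-202. Psmd11-205 measured 21.4 ± 2.92 CPM in vehicle and 17.4 ± 4.03 in the AM6545 group (log2 difference -0.30, SE 0.163, unadjusted p = 0.0924 by edgeR). Psmd7-202, a retained-intron transcript of a cap subunit, measured 2.24 ± 0.568 CPM in vehicle and 3.15 ± 0.795 in the AM6545 group (log2 difference 0.49, SE 0.267, unadjusted p = 0.0945 by edgeR). Psmc3ip-202, also a retained-intron transcript, measured 4.14 ± 1.10 CPM in vehicle and 2.85 ± 0.916 in the AM6545 group (log2 difference -0.54, SE 0.287, unadjusted p = 0.0898 by edgeR).

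The leading transcript held over 90% of its gene's level per length in 23 of 48 genes tested. It held under 50% in 1, Psme2, whose Psme2-201 held 49.3%. Transcripts annotated as other than protein-coding include retained-intron and nonsense-mediated decay types. They held a median of 2.67% of the level per length over the 47 proteasome genes. The share was under 5% in 35 genes and over 20% in 5. Besides Psmb10 these were Psmb4 with 44.4%, Psmd1 with 37.7%, Psma3 with 34.1% and Psmd13 with 28.2%. In Psmb4, a constitutive beta subunit, most of this share was the retained-intron transcript Psmb4-202, which held 40.7%. In Psmd1 and Psmd13 most was a nonsense-mediated decay transcript, Psmd1-204 with 37.3% and Psmd13-211 with 25.2%. The share of types other than protein-coding in Psmb4 was 46.8 ± 5.04% in vehicle and 42.0 ± 5.36% in the AM6545 group, with overlapping groups. The split of reads between transcripts of a gene carries an estimation error that the tables do not give.

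Psmc3ip, which is not a proteasome gene, measured 5.21 ± 1.19 CPM in vehicle and 4.47 ± 1.06 in the AM6545 group (SD, 5 libraries per group), with a log2 difference of -0.22 (SE 0.192, unadjusted p = 0.274 by edgeR). Psma8 measured 0.403 ± 0.136 and 0.533 ± 0.222 CPM, a log2 fold change of 0.36 whose 95% interval reached from 0.726 to 2.28-fold.

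The genes around the proteasome were read from lists of the ubiquitin pathway, and in none did a gene pass the threshold. Ubb, a polyubiquitin gene, measured 3653 ± 1004 CPM in vehicle and 3447 ± 466 in the AM6545 group, with a log2 fold change of -0.084.

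Of 18 ubiquitin-activating and conjugating enzymes, 6 were above 0 and 1 had an unadjusted p under 0.05, against 1.14% of all genes higher at that level. It was Ube2o, a large hybrid conjugating enzyme and ligase, with 33.6 ± 4.75 CPM in vehicle and 40.1 ± 4.39 in the AM6545 group (SD, n = 5 in each group). On the log2 scale the difference was 0.25 (SE 0.114, unadjusted p = 0.0401 and adjusted p = 0.9998 by edgeR). Among 24 partners, receptors and shuttles, 16 were above 0, with a median of 0.041. The ubiquitin receptor Adrm1 measured 138 ± 38.4 CPM in vehicle and 137 ± 16.3 in the AM6545 group, the small cap subunit Sem1 38.6 ± 5.82 CPM in vehicle and 38.4 ± 7.63 in the AM6545 group, and the core chaperone Pomp 119 ± 29.6 CPM in vehicle and 116 ± 19.1 in the AM6545 group. The 8 genes of the Nrf1 pathway had a median of 0.047, and Nfe2l1 itself measured 153 ± 20.2 CPM in vehicle and 159 ± 12.7 in the AM6545 group. The 27 ubiquitin ligases and deubiquitinases studied at synapses had a median of 0.029, with 18 above 0 and 0 with an unadjusted p under 0.05.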

How the data were processed

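RNA of 10 hippocampal synaptoneurosome libraries (5 vehicle, 5 AM6545) was sequenced. The authors deposited estimated counts per gene and per transcript, and the submitters' processing notes name Salmon 1.5.2 and mm10. The annotation release and use of strand are not given in the sources used here. Groups came from the sample titles. Estimated counts were rounded and fitted over all genes with edgeR 4.0.16 (R 4.3.3; TMM, filterByExpr with minimum count 10 and minimum total 15, robust quasi-likelihood, two-sided, Benjamini-Hochberg threshold 0.05), with likewise settings for transcripts. DESeq2 1.42.0 and limma 3.58.1 served as alternatives, with other scalings and filters, a replicate block, and each library left out in turn. The script was tested on simulated counts. Level per length used GENCODE M21 transcript lengths, symbols came by gene identifier for 22155 of 22255 genes, and sequences from RefSeq. Standard errors and intervals carry no error of read assignment, and PCR copies could not be told from separate molecules.

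Members, lists and tests were chosen with earlier results of these data known. Named were the catalytic and tissue-restricted genes, the extremes of each class by fold change, the 3 highest and 3 lowest levels, pathway genes with an unadjusted p under 0.05 and the 3 transcripts of smallest p. Others were named after their values were seen. Psma8 was set apart from the alpha ring at that stage.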

Additional observations from a re-analysis of the deposited data

Results flagged for a closer look

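In 7 of 102 groups of 5 libraries, 1 library stood apart from the other 4 of its group by a gap of more than 0.71 of the group's range (Dixon's 95% critical value). Chance flags about 1 in 20 groups, which is 5.1 here. Vehicle replicate 1 was the highest library in 4 of the 7. In it Psmb8 measured 10.3 CPM against 4.83 to 6.25 CPM in the other vehicle libraries, Psme2 measured 51.7 CPM against 28.6 to 35.1 CPM, and the core chaperones Psmg3 and Psmg4 measured 26.6 CPM against 13.6 to 16.5 CPM and 8.06 CPM against 4.21 to 5.20 CPM. The other 3 were in other libraries. Psmd2 was highest in vehicle replicate 4, with 392 CPM against 311 to 327 CPM in the rest of its group. Psmd3, a cap subunit, was lowest in AM6545 replicate 3, with 151 CPM against 198 to 217 CPM. Psmg2, a core chaperone, was highest in AM6545 replicate 2, with 43.1 CPM against 31.4 to 33.5 CPM.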

How the results depend on the processing

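No setting tried moved a proteasome gene or transcript past the threshold. In 798 fold changes of the 47 genes under 17 other settings, 0 fell under an unadjusted p of 0.05, and no adjusted p was below 0.915. Directions were not stable: 38 of 47 genes changed sign when some library was left out, 16 in a setting that kept all libraries, and 9 kept their sign throughout. Leaving out single libraries gave class medians of -0.11 to 0.073 for core and cap, -0.11 to 0.062 for the alpha ring, -0.18 to 0.078 for the beta ring, -0.26 to 0.087 for the inducible genes, -0.080 to 0.072 for the ATPases, -0.039 to 0.11 for the other cap genes, -0.043 to 0.069 for activators and -0.16 to 0.10 for assembly factors. Genes below 0 ranged from 2 to 28 of 31 core and cap genes and from 0 to 13 of 14 core genes, with 9 and 6 under limma-voom (these counts were added after seeing the data).

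Over all genes the count past the threshold was 0, and 0 to 1 with a library left out (1 without vehicle replicate 3 or AM6545 replicate 3). Over all transcripts it was 1, and 11 by the DESeq2 Wald test, 0 with at least 10 counts in every library, 0 with the replicate block and 0 to 4 with a library left out. The replicate numbers occur in both groups. Same-numbered libraries deviated together by more than 0.1 in 2 of 5 pairs (correlations -0.19 to 0.39), and 5 of 10 libraries correlated best with their own number. These values do not settle whether the numbers mark pairs, and the main fit did not use them as pairs. With the number as a block, 0 genes and 0 proteasome genes passed. The causes of these shifts were not tested. Psma8 and Psmb9 rest on few counts.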
